A study of Mus musculus with 12 samples.

Results

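In all, 9 genes that flank the targeted Phlpp1 and Phlpp2 genes, of the 49315 genes in the count table, were followed through 12 RNA sequencing libraries of mouse epiphyseal chondrocytes. Of the 9, 7 lie on chromosome 1 with Phlpp1 (Wdfy1, Efhd1, Dgkd, Gm29337, Mlph, D2hgdh and Pign) and 2 lie on chromosome 8 with Phlpp2 (Ciapin1 and Ndrg4). They were chosen by symbol because they lie near a targeted gene and differed between genotypes in these same libraries. Their response to the nearby null allele is therefore given as a description, without a test. In every one of the 6 libraries without Phlpp1, Mlph, Gm29337, Efhd1 and Dgkd were higher, and Wdfy1, D2hgdh and Pign lower, than in any of the 6 libraries with it. Among all 16565 genes tested, 0.459% were higher and 0.634% lower in this way. In every one of the 6 libraries without Phlpp2, Ciapin1 was higher and Ndrg4 lower than in any of the 6 with it, beside 0.145% and 0.175% of the tested genes.

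Phlpp1 and Phlpp2 encode protein phosphatases with leucine-rich repeats, which remove an activating phosphate from AKT and act on protein kinase C and other kinases. In growth plate cartilage, chondrocytes divide, enlarge and are replaced by bone, and AKT is among the kinases that govern these steps. Genes that lie close together on a chromosome are inherited together more often than genes far apart, so a null allele is usually passed on with the segment around it. The flanking genes belong to unrelated pathways, among them organelle transport, lipid signalling, mitochondrial metabolism, membrane anchors and iron-sulphur cluster assembly.

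The groups, with 3 libraries each, were wild type (WT), Phlpp1-/- (Phlpp1 KO), Phlpp2-/- (Phlpp2 KO) and Phlpp1/2-/- (Phlpp1/2 KO). All came from 5-day-old mice labelled female. Cells were freed with collagenase, frozen, thawed and cultured overnight with serum before RNA was taken. The strain label is C57BL6 for WT, Phlpp1 KO and the first 2 Phlpp2 KO libraries, C57BL7 for Phlpp2 KO 3, and C57BL8, C57BL9 and C57BL10 for the 3 Phlpp1/2 KO libraries. Whether these numbers name different strains or arose when the labels were filled in is not known. If they do name strains, strain and loss of both genes cannot be told apart. The labels do not say how the alleles were made, in which strain, how often carriers were backcrossed, or whether a library holds 1 animal or several.

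Libraries held 21706337 to 33115345 counts. Values are given as CPM, counts divided by the library size after TMM scaling and put on a common scale. The 10 chondrocyte markers together reached 30174 to 54737 CPM, with none at 0. In 2 libraries, the RNA of sex-linked genes went against the female label. In Phlpp1/2 KO 1, Xist was read at 3.77 CPM and 4 Y-linked genes summed to 108.5 CPM. In Phlpp1 KO 1, Xist was at 13.9 CPM and the Y-linked genes had 0 counts. Elsewhere Xist ran from 278 to 587 CPM, and the Y-linked sum reached at most 1.23 CPM. Both libraries lack Phlpp1, so results are also given without them. Phlpp1 RNA (chromosome 1) was 39.7 ± 4.35 CPM in WT (SD, n = 3) and 41.3 ± 3.33 in Phlpp2 KO, against 9.16 ± 0.353 in Phlpp1 KO and 8.22 ± 0.568 in Phlpp1/2 KO.

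The 7 chromosome 1 genes all start before Phlpp1, which spans 106171752 to 106394250 on the mm10 build (GENCODE vM21 annotation). Pign (105518422 to 105663677, minus strand) ends 0.508 Mb from it. D2hgdh (93824909 to 93852348, plus strand) lies 12.3 Mb away, and Mlph (90915085 to 90951142, plus strand) 15.2 Mb. Gm29337 (88868475 to 88875410, minus strand, annotated as a lincRNA) lies 17.3 Mb away. Dgkd (87853287 to 87945180, plus strand) follows at 18.2 Mb and Efhd1 (87264363 to 87310839, plus strand) at 18.9 Mb. Wdfy1 (79702262 to 79776143, minus strand) is the farthest, at 26.4 Mb.

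The 3 protein-coding genes that were higher in the libraries without Phlpp1 are shown here by the 250 bases before their RefSeq start (GRCm38.p6, plus strand, 5′ to 3′), since they were higher together. Capitals mark the GC box GGGCGG on either strand and, in Mlph, the E-box CACGTG as well. The positions are chr1:90914850-90915099 for Mlph, chr1:87264103-87264352 for Efhd1 and chr1:87853037-87853286 for Dgkd.
Mlph: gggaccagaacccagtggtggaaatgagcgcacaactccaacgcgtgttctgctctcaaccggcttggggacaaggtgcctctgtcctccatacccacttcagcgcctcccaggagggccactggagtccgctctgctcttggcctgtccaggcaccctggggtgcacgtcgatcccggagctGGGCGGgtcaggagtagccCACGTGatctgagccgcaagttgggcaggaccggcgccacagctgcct
Efhd1: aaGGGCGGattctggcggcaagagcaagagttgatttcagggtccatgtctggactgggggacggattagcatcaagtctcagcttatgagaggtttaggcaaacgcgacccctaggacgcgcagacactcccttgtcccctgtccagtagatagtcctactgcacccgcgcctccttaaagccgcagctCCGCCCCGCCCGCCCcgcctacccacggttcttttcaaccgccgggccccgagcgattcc
Dgkd: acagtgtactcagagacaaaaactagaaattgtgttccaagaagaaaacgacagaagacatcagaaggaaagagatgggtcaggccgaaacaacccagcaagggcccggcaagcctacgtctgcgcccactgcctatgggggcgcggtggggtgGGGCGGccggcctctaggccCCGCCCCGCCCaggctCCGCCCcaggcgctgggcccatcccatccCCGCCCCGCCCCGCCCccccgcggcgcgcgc
Of the 9 genes, 7 had a RefSeq promoter of this kind (Ndrg4 with 4 starts, any of which counted). A GC box lay in 7 of 7, against 32.7% of 32851 promoters of the same length, each counted singly. All 7 genes passed the filter on low counts, whereas the 32851 promoters were not limited to tested genes. The share among tested genes was not read. The promoters of the 6 genes with a single start were also richer in G and C (58.4% to 71.2%) than the median of all promoters (52.4%), and the part of this in the GC box count was not tested. The E-box lay in Mlph and Ndrg4, against 6.02%. CCAAT lay in Pign and Ndrg4 (33.8% of all promoters) and TATAAA in Ndrg4 (12.4%). The FOXO motif GTAAACA (3.17%), the AP-1 motif TGANTCA (6.75%) and the cAMP response element TGACGTCA (1.55%) lay in 0 of 7. Both strands were read for every motif. These matches describe the letters only. The E-box of Mlph was shared by neither Efhd1 nor Dgkd.

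Mlph encodes melanophilin, which ties melanosomes carrying RAB27A to myosin Va in pigment cells. It was read at 11.5, 12.9 and 15.1 CPM in WT and at 12.7, 11.8 and 16.7 CPM in Phlpp2 KO. In Phlpp1 KO it stood at 26.8, 28.6 and 28.3 CPM, and in Phlpp1/2 KO at 29.1, 24.4 and 24.2 CPM. The 6 libraries without Phlpp1 lay above all 6 with it, and within each set the 2 groups overlapped. The log2 fold change with loss of Phlpp1 was 1.08 (SE 0.13) against WT and 0.92 (SE 0.13) against Phlpp2 KO, or 2.12-fold and 1.89-fold.

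Gm29337, a long intergenic RNA with no function named in the annotation, had the widest relative difference of the 9. It had 1, 3 and 3 counts in WT and 1, 2 and 4 counts in Phlpp2 KO, against 39, 30 and 25 counts in Phlpp1 KO and 28, 43 and 27 counts in Phlpp1/2 KO. Scaled for depth, these are 0.0453 to 0.115 CPM, 0.0362 to 0.153 CPM, 0.979 to 1.31 CPM and 0.797 to 1.32 CPM, with no overlap between libraries with and without Phlpp1. The summed counts gave a ratio of 11.9 for Phlpp1 KO to WT (94 against 7 counts; exact 95% interval for counting error only, 5.56 to 30.4). For Phlpp1/2 KO to Phlpp2 KO the ratio was 12 (98 against 7 counts; 5.63 to 30.7). Gm29337 passed the filter on low counts through the 2 groups without Phlpp1 alone.

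Efhd1 encodes a mitochondrial calcium-binding protein and was also scarce. It was read at 0.498, 0.432 and 0.459 CPM in WT and at 0.687, 0.331 and 0.422 CPM in Phlpp2 KO. Without Phlpp1 it stood at 1.62, 1.28 and 1.37 CPM in Phlpp1 KO and at 1.26, 1.38 and 1.09 CPM in Phlpp1/2 KO. The groups with and without Phlpp1 were apart, although counts were low. They were 11, 12 and 12 in WT and 19, 10 and 11 in Phlpp2 KO, and the highest library of all held 48. Its log2 fold change was 1.62 (SE 0.26) against WT and 1.37 (SE 0.26) against Phlpp2 KO.

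Dgkd encodes diacylglycerol kinase delta, which turns the second messenger diacylglycerol into phosphatidic acid. It was the most abundant of the chromosome 1 genes per base of exon (9.19 RPKM in WT, against 0.218 RPKM for Efhd1), and its difference was the smallest of those that were higher. WT libraries had 63.7, 61.8 and 63.3 CPM, Phlpp2 KO 62.0, 56.8 and 54.6 CPM, Phlpp1 KO 76.9, 80.3 and 74.5 CPM, and Phlpp1/2 KO 74.3, 73.6 and 73.0 CPM. All 6 libraries without Phlpp1 lay above the other 6, and the Phlpp1/2 KO libraries lay just below those of Phlpp1 KO. The log2 fold change was 0.30 (SE 0.06) against WT and 0.35 (SE 0.06) against Phlpp2 KO, or 1.23-fold and 1.27-fold.

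D2hgdh encodes the mitochondrial dehydrogenase that clears D-2-hydroxyglutarate. It was read at 10.6, 9.69 and 11.8 CPM in WT and at 10.2, 9.23 and 10.5 CPM in Phlpp2 KO. In Phlpp1 KO it stood at 5.15, 5.22 and 4.62 CPM, and in Phlpp1/2 KO at 5.09, 5.32 and 5.02 CPM. The lowest library with Phlpp1 was thus well above the highest without it, and the state of Phlpp2 separated neither pair of groups. The log2 fold change was -1.10 (SE 0.11) against WT and -0.95 (SE 0.11) against Phlpp2 KO, or 2.14-fold and 1.94-fold lower.

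Wdfy1 encodes an endosomal adaptor with WD repeats and a FYVE domain that links Toll-like receptors to TICAM1. It stood at 15.8, 15.6 and 21.5 CPM in WT and at 28.3, 24.6 and 24.2 CPM in Phlpp2 KO. Without Phlpp1 it stood at 8.04, 9.30 and 9.24 CPM in Phlpp1 KO and 8.47, 7.77 and 8.62 CPM in Phlpp1/2 KO. The Phlpp2 KO libraries lay above all WT libraries, while Phlpp1 KO and Phlpp1/2 KO overlapped. The log2 fold change was -0.99 (SE 0.13) against WT and -1.63 (SE 0.13) against Phlpp2 KO, or 1.99-fold and 3.10-fold lower.

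Pign encodes the enzyme that adds ethanolamine phosphate to the first mannose of glycosylphosphatidylinositol (GPI) anchors. Although nearest to Phlpp1, it differed least among the 3 genes that were lower. It was read at 46.9, 44.7 and 47.0 CPM in WT, 54.0, 50.8 and 54.0 CPM in Phlpp2 KO, 42.2, 33.7 and 41.0 CPM in Phlpp1 KO, and 31.6, 33.9 and 39.0 CPM in Phlpp1/2 KO. The highest library without Phlpp1 lay just below the lowest WT library, and Phlpp2 KO lay above WT. The log2 fold change was -0.25 (SE 0.09) against WT and -0.60 (SE 0.09) against Phlpp2 KO.

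**Figure D1:**
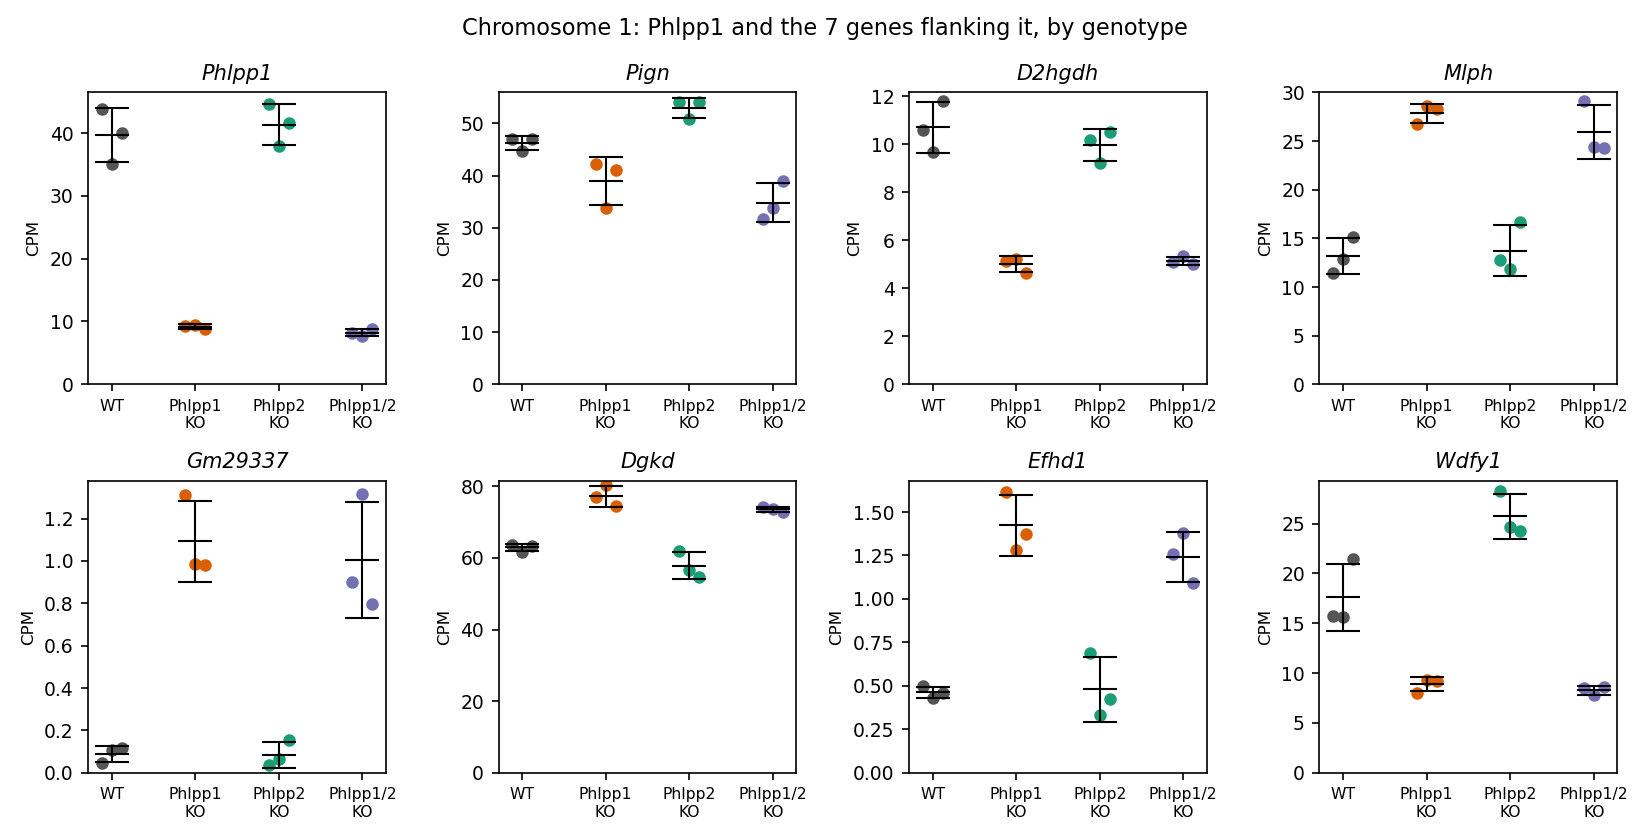
Level in CPM (vertical axes from 0) of Phlpp1 and the 7 chromosome 1 genes in each library, by genotype; points are libraries, and the bars are the mean and SD over 3. In every panel the Phlpp1 KO and Phlpp1/2 KO points lie on the same side of all WT and Phlpp2 KO points, with 4 genes higher and 3 lower besides Phlpp1 itself.

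Both backgrounds gave the same direction for each of the 7 genes, in comparisons that share no library: Phlpp1 KO against WT, and Phlpp1/2 KO against Phlpp2 KO. Libraries failed to overlap by Phlpp1 allele in 7 of 7 genes, where this held for 1.09% of the 16565 tested genes. In both backgrounds taken separately, 2.05% of tested genes did not overlap and had the same direction. With edgeR's quasi-likelihood test and an adjusted p under 0.05 as the call, 6 of 7 were called against WT (all but Pign), beside 0.537% of all tested genes. Against Phlpp2 KO 6 of 7 were called (all but Efhd1), beside 0.0724%, and with both genes lost against WT 5 of 7 (not Dgkd or Pign), beside 0.235%. Since these contrasts chose the genes, nothing is read from the counts. Without Phlpp1 KO 1 and Phlpp1/2 KO 1, the calls against WT were Gm29337, Mlph and D2hgdh, and those against Phlpp2 KO were Wdfy1 and Gm29337. Each gene kept its direction in both comparisons in the same refit. Of the 12 refits with 1 library left out, Wdfy1 and D2hgdh were called in 12 for both comparisons, while Dgkd was called in 4 and 2 and Efhd1 in 7 and 2.

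**Figure D2:**
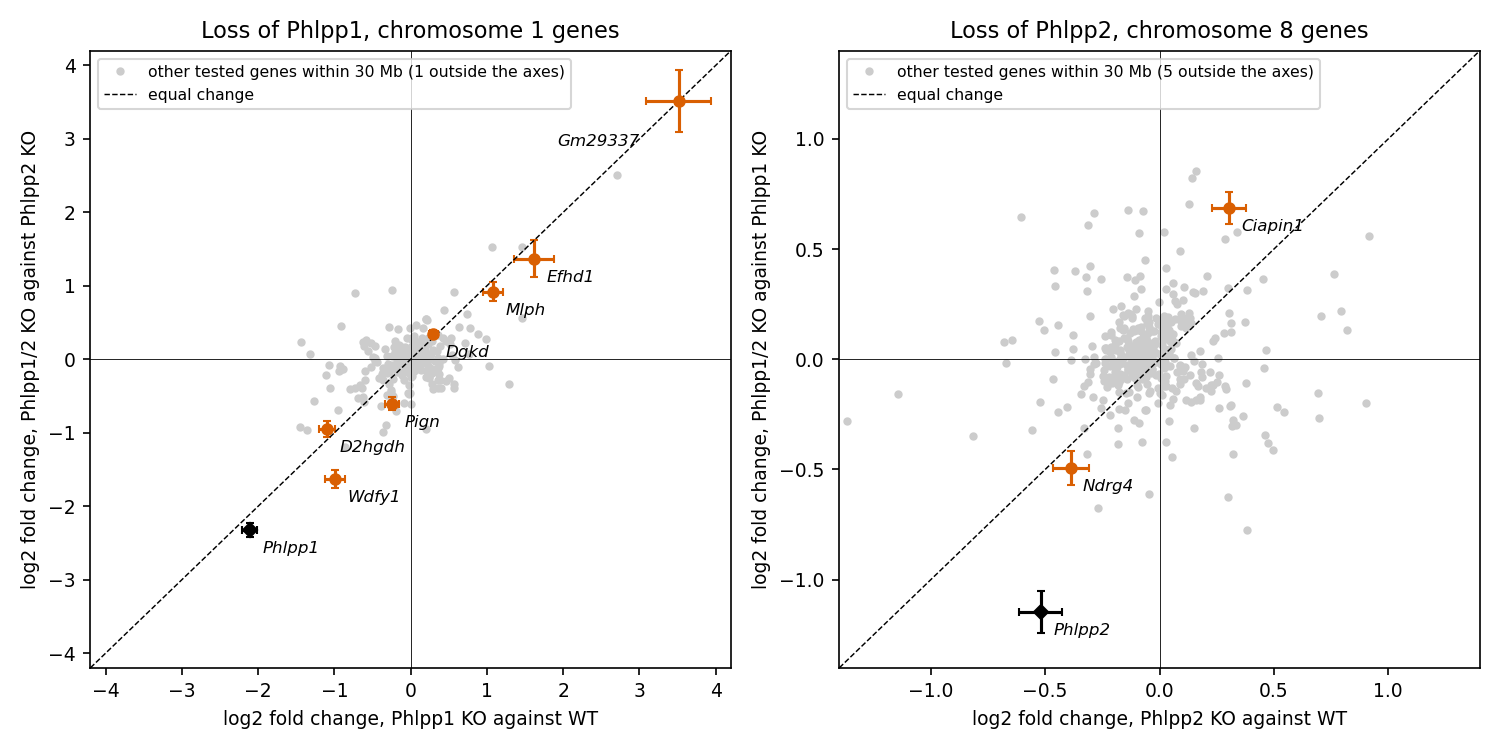
Log2 fold change with loss of the nearby Phlpp gene in the presence of the other Phlpp gene (horizontal axis) and in its absence (vertical axis); orange points are the 9 genes, black diamonds the targeted genes, grey points other tested genes within 30 Mb, bars are SE, and the dashed line marks equal change. The 7 chromosome 1 genes and both chromosome 8 genes have the same sign on both axes, with Gm29337 farthest out at 3.51 and 3.52.

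The 7 genes were also compared by the Phlpp2 allele, which lies on another chromosome. The genes were proposed with all contrasts in view, and these comparisons use the same WT, Phlpp1 KO, Phlpp2 KO and Phlpp1/2 KO libraries. Genes chosen for sorting by the Phlpp1 allele leave less room for an effect of Phlpp2. The values are therefore given as a description, and nothing is read from the counts called. For Phlpp2 KO against WT, edgeR called 0 of 7 (adjusted p 0.149 to 0.962), beside 0.121% of all tested genes. Unadjusted p was under 0.05 for Wdfy1 and Pign (2 of 7, beside 13.8%), and DESeq2 called Wdfy1. The Wdfy1 log2 fold change was 0.54 (95% interval 0.31 to 0.78, adjusted p = 0.149 by edgeR), higher in 3 of 3 Phlpp2 KO libraries than in any WT library (19.1% of tested genes did not overlap between these groups). Its adjusted p ran from 0.00243 to 0.357 over 18 alternatives, and it was 0.0332 without WT 3, the highest WT library. For Phlpp1/2 KO against Phlpp1 KO, 0 of 7 were called by edgeR (adjusted p 0.630 to 0.933), beside 0.0121%, 0 had an unadjusted p under 0.05 (7.9% of tested genes had), and DESeq2 called 0. The intervals are approximate (see the processing section). They were narrower for D2hgdh (-0.18 to 0.26 on the log2 scale) and Dgkd (-0.18 to 0.04) than for Gm29337 (-0.65 to 0.41) and Efhd1 (-0.63 to 0.23).

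The interaction of both losses is the difference between the 2 contrasts that chose the genes of each chromosome, so it is given as a description. Of the 9 genes, 0 were called by edgeR, beside 0.0483% of tested genes. Unadjusted p was under 0.05 for Wdfy1, Pign and Ciapin1 (3 of 9, beside 14.5%), and DESeq2 called Wdfy1 and Ciapin1. Without Phlpp1/2 KO 3, edgeR called Wdfy1, Pign and Ciapin1. Nothing is read from these counts. The interaction was -0.64 (SE 0.18) for Wdfy1 and -0.36 (SE 0.13) for Pign on the log2 scale. For Mlph, D2hgdh, Dgkd and Gm29337 the interaction was -0.16, 0.14, 0.05 and 0.01.

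Around Phlpp1, 286 tested genes started within 30 Mb, and the 7 genes were not the only ones to separate by allele. Libraries did not overlap in 18 of the 286 (6.29%), against 162 of 16278 tested genes elsewhere (0.995%). Without the 7, the share nearby was 11 of 279 (3.94%). These 11, named after their values were seen, were Inpp5d, Usp40, Glrp1, Ramp1, Asb1, Farp2, Stk25, Panct2, Gin1, Kdsr and Serpinb8. Glrp1 passed the filter on low counts only through libraries with Phlpp1, where it was higher, so nothing is read from its part in this share. Panct2 had log2 fold changes of 2.70 (SE 0.76) and 2.51 (SE 0.83). Kdsr and Serpinb8 start after Phlpp1, unlike all 7 of the chosen genes. By distance, 6 of 114 tested genes between 10 and 20 Mb were called against WT and 5 of 114 against Phlpp2 KO, but 5 and 4 of these are among the 7 genes, chosen in these contrasts, so nothing is read from the shares (0.537% and 0.0724% over all tested genes). Besides the 7, the calls there were Glrp1 against WT and Usp40 against Phlpp2 KO. Within 10 Mb 1 of 31 was called in each comparison (Gin1 against WT, Pign against Phlpp2 KO), and between 20 and 30 Mb 1 of 141 (Wdfy1 in each). Between 30 and 40 Mb it was 0 of 108 in each, and beyond 40 Mb on the chromosome 6 of 635 against WT and 0 of 635 against Phlpp2 KO.

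Calls within 20 Mb that fell outside the 7 genes were Glrp1 and Gin1 against WT and Usp40 against Phlpp2 KO. Glrp1 had 10, 7 and 12 counts in WT and 8, 9 and 12 in Phlpp2 KO, against 0, 0 and 0 in Phlpp1 KO and 2, 4 and 0 in Phlpp1/2 KO. As it passed the filter through libraries with Phlpp1 alone, nothing is read from its call. Gin1 was higher by 0.52 (SE 0.10) and 0.30 (SE 0.10) on the log2 scale. Usp40 encodes a deubiquitinating enzyme and shares 62 exon bases with the end of Dgkd on the other strand. It was lower by -0.31 (SE 0.07, adjusted p = 0.0722, not called) and -0.48 (SE 0.07, adjusted p = 0.0259, edgeR), while Dgkd was higher. The strand setting of the counting is not given in the sources used here, so reads in the shared bases cannot be told apart.

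Genes next to the 7 were read as well. Of the 14 nearest tested protein-coding genes on either side, edgeR called 0 against WT, beside 0.537% of all tested genes. There 3 of the 14 had an unadjusted p under 0.05, beside 20.4% of all, and DESeq2 called Usp40. Against Phlpp2 KO edgeR called 1, Usp40, beside 0.0724%. Nothing is read from these counts. The median absolute log2 fold change of these neighbours was 0.14 in both comparisons. Mlph, for instance, stands between Col6a3 (0.17 and 0.17) and Rab17 (0.06 and 0.47), and D2hgdh next to Ing5 (0.10 and 0.13), which ends 2.81 kb before it. Mrpl44 overlaps the first bases of Wdfy1 on the other strand by 126 exon bases and stood at -0.07 and 0.09.

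**Figure D3:**
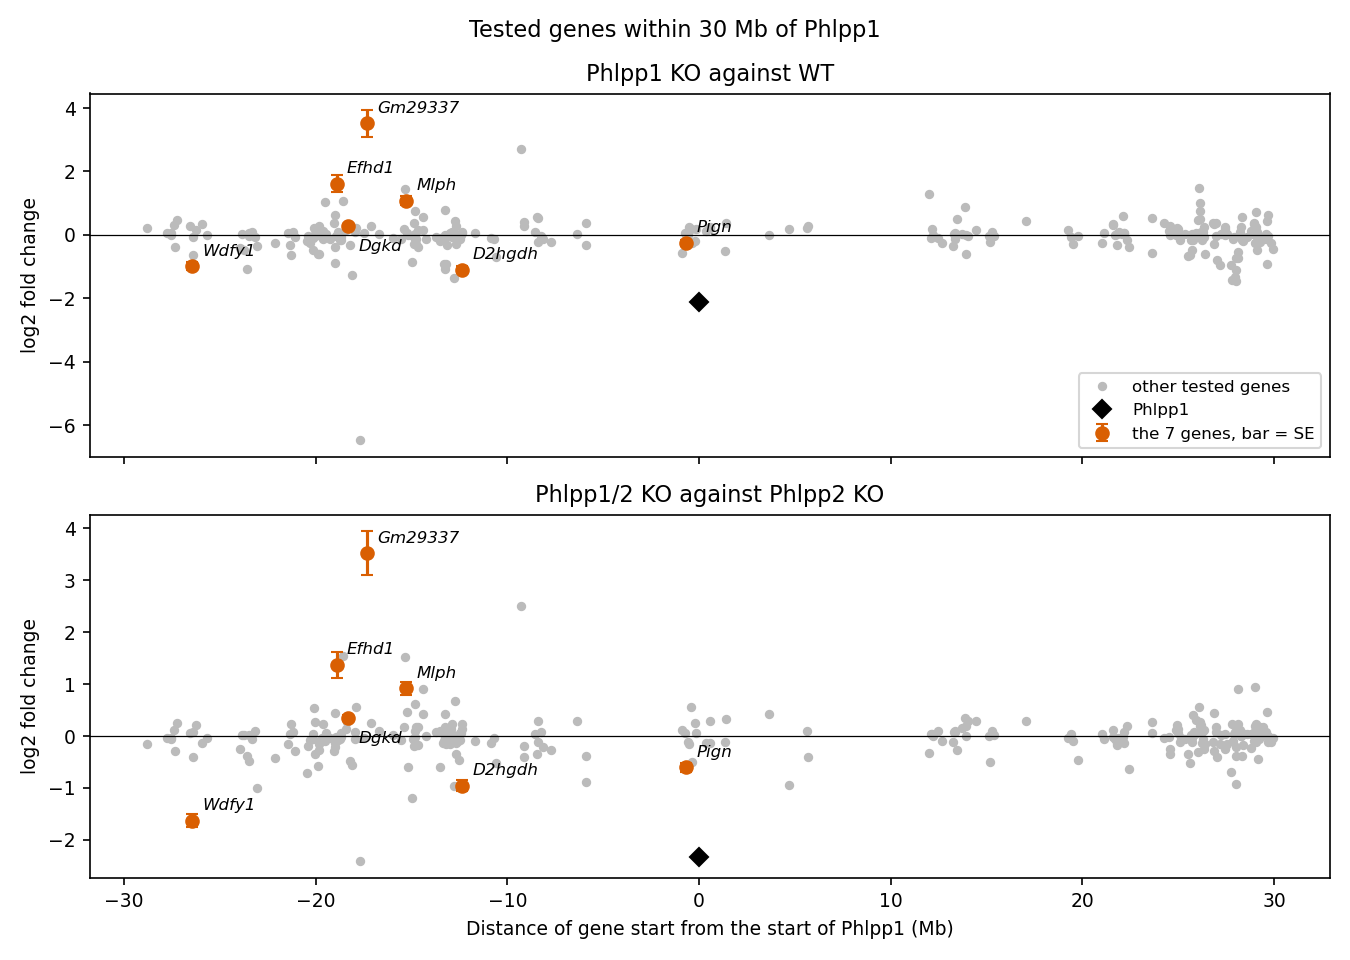
Log2 fold change (vertical axes) of the tested genes within 30 Mb of the start of Phlpp1, by distance in Mb (horizontal axis; negative is before the start), for Phlpp1 loss against WT (upper panel) and against Phlpp2 KO (lower panel). The 7 genes (orange, bars are SE) all lie before Phlpp1 (black diamond), 6 of them more than 12 Mb away, among other genes (grey) that mostly lie near 0.

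On chromosome 8, Phlpp2 (109868542 to 109944671, plus strand) was still read in the libraries labelled null. It was read at 28.1, 22.4 and 25.8 CPM in WT, 24.9, 22.8 and 24.9 CPM in Phlpp1 KO, 17.1, 16.8 and 19.4 CPM in Phlpp2 KO, and 11.1, 10.2 and 11.4 CPM in Phlpp1/2 KO. Phlpp2 KO thus held 69.7% of the WT mean and Phlpp1/2 KO 42.8%, with no overlap between the 2 groups (12.4% of tested genes did not overlap there). The log2 fold change was -0.52 (SE 0.09, adjusted p = 0.0607 by edgeR, not called) for Phlpp2 KO against WT and -1.15 (SE 0.10, adjusted p = 0.000304) for Phlpp1/2 KO against Phlpp1 KO. The labels do not say which part of Phlpp2 was removed. In bulk RNA, fewer cells with a transcript and less of it per cell cannot be told apart, for Phlpp2 and for the 9 genes alike.

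Ciapin1 (94819804 to 94838358, minus strand, 15 Mb before Phlpp2) encodes anamorsin, an electron carrier in the cytosolic assembly of iron-sulphur clusters. It stood at 62.6, 67.7 and 72.0 CPM in WT and 72.6, 74.4 and 65.9 CPM in Phlpp1 KO. In Phlpp2 KO it stood at 87.2, 80.8 and 81.7 CPM, and in Phlpp1/2 KO at 115.2, 122.4 and 105.3 CPM. WT and Phlpp1 KO overlapped, Phlpp2 KO lay above both, and Phlpp1/2 KO above all, so that the order was the reverse of that of Phlpp2. The means were 123.5% of WT in Phlpp2 KO and 169.5% in Phlpp1/2 KO. With loss of Phlpp2, the log2 fold change was 0.30 (SE 0.07) against WT and 0.69 (SE 0.07) against Phlpp1 KO.

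Ndrg4 (95676980 to 95715119, plus strand, 14.2 Mb before Phlpp2) belongs to the N-myc downstream-regulated family and is best known from heart and brain. It was read at 19.5, 18.3 and 18.9 CPM in WT, 17.0, 17.8 and 15.5 CPM in Phlpp1 KO, 14.7, 13.5 and 15.1 CPM in Phlpp2 KO, and 11.9, 11.8 and 12.1 CPM in Phlpp1/2 KO. No 2 groups overlapped, also where the comparison was Phlpp1 KO to WT (28.2% of tested genes) or Phlpp1/2 KO to Phlpp1 KO (13.2%): WT was highest, then Phlpp1 KO, Phlpp2 KO and Phlpp1/2 KO. The means were 88.8%, 76.4% and 63.1% of WT in that order. With loss of Phlpp2 the log2 fold change was -0.39 (SE 0.08) against WT and -0.49 (SE 0.08) against Phlpp1 KO.

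**Figure D4:**
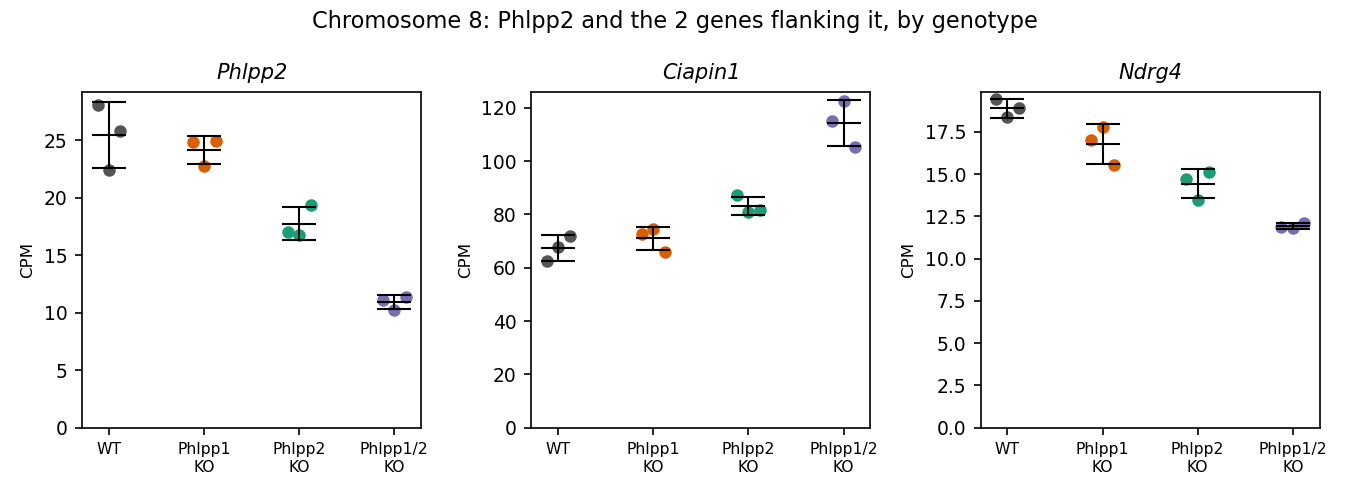
Level in CPM (vertical axes from 0) of Phlpp2, Ciapin1 and Ndrg4 in each library, by genotype; points are libraries, and the bars are the mean and SD over 3. Phlpp2 and Ndrg4 are lowest and Ciapin1 highest in Phlpp1/2 KO, and Phlpp2 KO lies between it and WT in each panel.

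Both chromosome 8 genes followed the Phlpp2 allele in both backgrounds. Libraries with and without Phlpp2 did not overlap in 2 of 2, where this held for 0.32% of tested genes, and 0.706% did not overlap in both backgrounds taken separately with the same direction. By edgeR 0 of 2 were called for Phlpp2 KO against WT, beside 0.121% of tested genes. Both had an unadjusted p under 0.05, as did 13.8% of tested genes, and DESeq2 called both. For Phlpp1/2 KO against Phlpp1 KO, Ciapin1 was called and Ndrg4 was not. Ciapin1 and Phlpp2 itself were the only calls of that comparison among 16565 genes (0.0121%), and Ciapin1 kept its call in 12 of 12 refits with 1 library left out. With Phlpp1 KO 1 and Phlpp1/2 KO 1 left out, edgeR called neither chromosome 8 gene in that comparison. The Ciapin1 log2 fold change still lay between 0.63 and 0.74 there, as in every alternative. Both genes were called for Phlpp1/2 KO against WT (2 of 2, beside 0.235%), in 12 of 12 refits. As these contrasts chose the genes, the counts support nothing.

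Both genes were also compared by the Phlpp1 allele, on the other chromosome. This too is a description, since the genes were proposed with all contrasts in view. For Ciapin1, Phlpp1 KO against WT gave a log2 fold change of 0.07 (95% interval -0.07 to 0.22, adjusted p = 0.609, edgeR). Phlpp1/2 KO against Phlpp2 KO gave 0.46 (0.32 to 0.60, adjusted p = 0.0439 by edgeR), beside 0.0724% of tested genes called. Ciapin1 was higher in 3 of 3 libraries, where 12.4% of tested genes did not overlap. This comparison uses the same Phlpp1/2 KO libraries that chose the gene. The call was kept in 2 of 12 refits with 1 library left out (WT 1, Phlpp1/2 KO 3), with adjusted p from 4.63e-05 to 0.576 over 18 alternatives. The call was also lost without Phlpp1 KO 1 and Phlpp1/2 KO 1. The difference between these 2 effects, the interaction, was 0.38 (SE 0.10), given as a description. Ndrg4 was not called by edgeR or DESeq2 with loss of Phlpp1. Its unadjusted p by edgeR was 0.0478 against WT (20.4% of tested genes were under 0.05) and 0.00421 against Phlpp2 KO (8.84%). In each background, every Ndrg4 value without Phlpp1 lay below every value with it. Such separation in both backgrounds, in the same direction, held for 2.05% of tested genes. Its log2 fold change was -0.17 (-0.32 to -0.02, adjusted p = 0.240 by edgeR) against WT and -0.27 (-0.43 to -0.12, adjusted p = 0.499) against Phlpp2 KO.

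The flank of Phlpp2 was read in the same way. Of 450 tested genes within 30 Mb, libraries did not overlap by Phlpp2 allele in 4 (0.889%), against 48 of 16114 tested genes elsewhere (0.298%). Of the 4, Ciapin1 and Ndrg4 were chosen for this pattern, and without them the share nearby was 2 of 448 (0.446%), Brd7 and Ripor1. Within 20 Mb, edgeR called 1 of 344 (0.29%) for Phlpp2 KO against WT (Gm17709), beside 0.121% of all tested genes. For Phlpp1/2 KO against Phlpp1 KO it was 1 of 344 (0.29%), beside 0.0121%. That call was Ciapin1, chosen in this contrast, so nothing is read from the share. Brd7, Ripor1 and Gm17709 are named with their values in view. The neighbours of Ciapin1 (Cx3cl1 and Coq9) and of Ndrg4 (Gins3 and Setd6) were not called with loss of Phlpp2 by edgeR or DESeq2. An unadjusted p under 0.05 was met by 0 of the 4, beside 13.8% of all tested genes against WT and 7.9% against Phlpp1 KO. Coq9, which meets Ciapin1 head to head and shares 38 exon bases with it, stood at -0.14 and 0.10 on the log2 scale, against 0.30 and 0.69 for Ciapin1.

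Likeness across the 12 libraries was described by Pearson's r of log2 CPM, with no test, since the points share the 4 genotypes. Among the chromosome 1 genes the absolute r of each pair lay between 0.76 (Efhd1 and Pign) and 0.97 (Gm29337 and Mlph). The genes were chosen for sorting by these alleles, which favours a large r with the targeted gene. With Phlpp1, r was 0.98 for D2hgdh and -0.98 for Gm29337, and no other tested gene had a larger absolute r with these 2. For Wdfy1 (0.95), Mlph (-0.95), Efhd1 (-0.93), Dgkd (-0.90) and Pign (0.87), Phlpp1 ranked 2, 2, 4, 22 and 19 by absolute r. With Phlpp2, r was -0.97 for Ciapin1 and 0.94 for Ndrg4, the largest absolute r of any tested gene with each. Outside the 9 genes and their targets, the closest were Usp40 for Gm29337 (-0.94), Glrp1 for D2hgdh (0.94), Farp2 for Dgkd (-0.96) and Usb1 for Ciapin1 (0.93), each on the same chromosome as its partner. Tnc on chromosome 4 was closest to Mlph (0.93), Cxcl14 on chromosome 13 to Efhd1 (-0.95), and Fosb on chromosome 7 to both Wdfy1 (-0.95) and Pign (-0.95). Ndrg4 was closest to the pseudogene Gm15483 on chromosome 7 (-0.94).

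Genes that work with the 9 were looked up in lists set with earlier results of these data known. Some of them also lie on chromosome 1, among them Pigc, Pigm and Pgap1. Of 61 tested partners, edgeR called 0 in each of the 6 contrasts. Unadjusted p was under 0.05 for 11 with loss of Phlpp1 against WT (20.4% of all tested genes), where DESeq2 called Ndrg3, and for 11 against Phlpp2 KO (8.84% of all), where DESeq2 called Phgdh. For Phlpp2 loss these counts were 10 against WT (13.8% of all) and 3 against Phlpp1 KO (7.9% of all), with 0 called by DESeq2. With both genes lost against WT it was 9 (11.1% of all; DESeq2 called Phgdh) and for the interaction 8 (14.5% of all; DESeq2 called 0). The 25 other GPI anchor genes had a median log2 fold change of 0.01 in each Phlpp1 comparison (all tested genes, -0.01 and 0.00), with Pigv at -0.28 (SE 0.08) and Pigp at -0.36 (SE 0.10) nearest to a call. Phgdh, which makes serine and can form D-2-hydroxyglutarate as a side product, was at 0.14 (SE 0.06, adjusted p = 0.212 by edgeR) and 0.34 (SE 0.06, adjusted p = 0.0869).

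The myosin Va gene Myo5a, whose protein binds melanophilin, stood at 0.18 (SE 0.12) and -0.29 (SE 0.12), and Rab27b at 0.22 (SE 0.18) and -0.41 (SE 0.17). Of the 8 tested genes of iron-sulphur assembly, the median with loss of Phlpp2 was -0.09 against WT and 0.06 against Phlpp1 KO, with none called, and Nubp2 was at -0.13 (SE 0.06) and 0.10 (SE 0.05). The 8 tested diacylglycerol kinases had medians of 0.06 and -0.03 with loss of Phlpp1, with Dgke at 0.26 (SE 0.11) against WT. Among relatives of Efhd1 and Wdfy1, Efhd2 was at -0.04 (SE 0.09) and 0.16 (SE 0.09), and Wdfy2 at -0.09 (SE 0.14) against WT. Tlr3, a receptor served by WDFY1, was at -0.58 (SE 0.18, adjusted p = 0.516 by edgeR) against Phlpp2 KO. The NDRG family other than Ndrg4 ranged from -0.10 to -0.09 for Phlpp2 KO against WT and from 0.06 to 0.14 for Phlpp1/2 KO against Phlpp1 KO.

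Markers of other cell types were read because melanophilin is known from pigment cells and Ndrg4 from neurons and heart. No list of heart markers was read. Of the 8 melanocyte markers 3 passed the filter on low counts, and of the 8 neuronal markers 2. The 8 melanocyte markers summed to 8.75 to 15 CPM over all libraries and overlapped between genotypes, and Tyr and Tyrp1 had 0 counts in all 12. The 8 neuronal markers summed to 2.56 to 4.37 CPM, with Phlpp1/2 KO (2.97 to 3.29) below Phlpp2 KO (3.41 to 4.37). Between these 2 groups 12.4% of single tested genes did not overlap. Phlpp1 KO lay below WT in the sums of macrophage markers (45.9 to 50.9 against 53.1 to 60.0 CPM) and osteoblast markers (19.5 to 21.3 against 22.5 to 32.0 CPM), without overlap. Single tested genes did not overlap between Phlpp1 KO and WT in 28.2% of cases, so nothing is read from this separation. The part of these sums in the Phlpp1 comparisons was not tested. Keratinocyte markers (6.11 to 9.30 CPM) and endothelial markers (1.95 to 10.9 CPM) overlapped between WT and each null genotype. Muscle markers varied most, at 13.1 to 64.8 CPM in WT, 7.71 to 30.6 in Phlpp1 KO, 4.22 to 10.4 in Phlpp2 KO and 9.91 to 18.5 in Phlpp1/2 KO. Those in WT and Phlpp2 KO did not overlap, as held for 19.1% of single tested genes. The part of muscle markers in the differences of Wdfy1, Pign, Ciapin1 and Ndrg4 between these groups was not tested. Of 40 tested markers edgeR called 0 in each of the 6 contrasts. An unadjusted p under 0.05 was met by 5 with loss of Phlpp1 against WT (20.4% of all tested genes) and 2 against Phlpp2 KO (8.84%). It was met by 9 for Phlpp2 KO against WT (13.8%), 4 for Phlpp1/2 KO against Phlpp1 KO (7.9%), 6 for Phlpp1/2 KO against WT (11.1%) and 2 in the interaction (14.5%). Named because of their calls, and so with their values in view, DESeq2 called Cd68 with loss of Phlpp1 against WT, Myog and Myh3 for Phlpp2 KO against WT, and Hapln1 in the interaction, with 0 in the other three.

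Reads could be shared with other genes for some of the 9. Stretches with at least 95% identity over at least 150 bases were found in reference transcripts of 0 other genes for Dgkd, Gm29337, Mlph and Ndrg4. D2hgdh shared 567 bases with 2 chromosome 1 pseudogenes, Gm18666 and Gm7889 (99.6% and 99.1% identity), which had 40 and 20 counts over all libraries. Efhd1 matched its antisense partner Efhd1os, with 3 counts, and Wdfy1 matched 3 genes. Pign matched 47 genes and Ciapin1 28, among them Rpl7a over 863 bases at 96.5% identity, through the pseudogene Gm7418, whose 801 exon bases lie within those of Ciapin1 and which had 0 counts. How reads with several matches were counted is not given in the sources used here, so the levels of Pign and Ciapin1 are uncertain in this respect.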

How the data were processed

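RNA from cultured epiphyseal chondrocytes of 4 genotypes (3 libraries each) was sequenced from NEBNext Ultra II libraries. Per the submitters' processing notes, the authors used bcl2fastq 2.17, STAR 2.5.2b and featureCounts of Subread 1.5.2 on mm10, and deposited raw counts per gene. Annotation release and strand setting, and how multi-mapped reads were counted, are not given in the sources used. The 9 genes and all lists were chosen with earlier results of these data known. The 174 rows without a symbol held 0.00419% of counts.

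Genes were filtered with filterByExpr of edgeR 4.0.16 (minimum count 10, or 0.344 CPM), leaving 16565 of 49315, and TMM-scaled. Quasi-likelihood tests used all 12 libraries with genotype as the term (residual df 8), and calls required a Benjamini-Hochberg adjusted p under 0.05 over all tested genes. The labels do not say that replicates are separate animals, so p-values measure the spread between these samples, which may be technical. DESeq2 1.42.0 and the other alternatives are in the closing section. Named genes were the 9, Phlpp1 and Phlpp2, the nearest tested protein-coding gene on each side, the genes of largest absolute r over the 12 libraries (of the 3 listed for each, the first is named), called genes within 10 Mb, and the 1 or 2 partners of smallest adjusted p per list. Other genes were picked with their values in view. One count was worth 0.0302 to 0.0461 CPM. Similar stretches were sought with BLAST+ 2.17.0.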

Additional observations from a re-analysis of the deposited data

How the results depend on the processing

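In 840 of 962 values of single genes, direction and side of the threshold were kept. Counts of all genes called depended most on the setting. With DESeq2 they were 990 (Phlpp1 KO against WT, 89 in the reported fit), 44 (Phlpp1/2 KO against Phlpp2 KO, 12), 317 (Phlpp2 KO against WT, 20), 21 (Phlpp1/2 KO against Phlpp1 KO, 2), 168 (Phlpp1/2 KO against WT, 39) and 650 (interaction, 8). Without a low count filter they were 461, 32, 110, 14, 102 and 183 in the same order. With the replicate number as a block they were 245 for Phlpp1 KO against WT, 84 for Phlpp2 KO against WT and 308 for the interaction, and Ciapin1 lost its call against Phlpp2 KO (0 of 2 chromosome 8 genes). Deviations from the group means had 18 correlations between same-numbered libraries, from -0.16 to 0.30, with 4 over 0.1. Between libraries of other numbers there were 36, from -0.28 to 0.22, with 5 over 0.1. Whether the numbers pair the libraries is not settled by these values. Without Phlpp1 KO 1 and Phlpp1/2 KO 1 the counts were 18 (Phlpp1 KO against WT), 3 (Phlpp1/2 KO against Phlpp2 KO) and 4 (interaction), with 3 and 2 chromosome 1 genes called in the first 2 of these and 0 chromosome 8 genes against Phlpp2 KO or Phlpp1 KO. Fitting the compared libraries alone gave 1163 (Phlpp1 KO against WT), 3 (Phlpp1/2 KO against Phlpp2 KO, with 1 chromosome 1 and 0 chromosome 8 genes) and 1 (Phlpp1/2 KO against Phlpp1 KO, with 0 chromosome 8 genes). DESeq2 and the fit without a filter each called 1 chromosome 1 gene for Phlpp2 KO against WT and 1 for the interaction, and 2 chromosome 8 genes for Phlpp1/2 KO against Phlpp1 KO. For Phlpp2 KO against WT they called 2 and 1 chromosome 8 genes, and DESeq2 called 1 in the interaction.

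Leaving out 1 library gave 16 (WT 2) to 647 (Phlpp1/2 KO 3) calls for Phlpp1 KO against WT, 4 (Phlpp1/2 KO 1) to 132 (Phlpp1/2 KO 3) for Phlpp1/2 KO against Phlpp2 KO, and 9 (WT 2 or Phlpp2 KO 3) to 159 (Phlpp1/2 KO 3) for Phlpp2 KO against WT. It gave 2 to 4 for Phlpp1/2 KO against Phlpp1 KO, 18 (WT 3) to 57 (Phlpp2 KO 1) for Phlpp1/2 KO against WT, and 5 to 1196 (Phlpp1/2 KO 3) for the interaction. Chromosome 1 genes called ranged from 4 to 6, 2 (Phlpp2 KO 2) to 7, 0 to 1 (WT 3) and 0 to 2 (Phlpp1/2 KO 3) for Phlpp1 KO against WT, Phlpp1/2 KO against Phlpp2 KO, Phlpp2 KO against WT and the interaction. Chromosome 8 genes ranged from 0 to 1 for the last 3. Small effects that changed sign when 1 library was left out were those of Phlpp2 loss on Efhd1 (-0.30 to 0.29), Gm29337 (-0.77 to 0.21) and Mlph (-0.10 to 0.18) against WT, and on Gm29337 (-0.37 to 0.032, and 0.094 without Phlpp1 KO 1 and Phlpp1/2 KO 1) and D2hgdh (-0.00599 to 0.071) against Phlpp1 KO. The interaction changed sign for Efhd1 (-0.49 to 0.10) and Gm29337 (-0.33 to 0.64, -0.000377 without a filter and -0.00306 with the replicate block). In bins of 5 Mb the highest share called within 20 Mb was 10.2% and 8.16% around Phlpp1 (5.26% and 4.39% in bins of 10 Mb) and 0.885% and 1.56% around Phlpp2 (0.565% in each). Around Phlpp1 most of these calls were the chosen genes, as was the 1.56% around Phlpp2 (Ciapin1), while the 0.885% was Gm17709. The cause of these shifts was not tested. The low counts of Efhd1 and Gm29337 limit their precision.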
